A study of Oncorhynchus mykiss with 18 samples.

Results

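The genes described here encode 7 proteins that the vertebrate liver releases into blood plasma: rbp4, tfa, ahsg2, spp2, leg1, apoba and apoe. They are 7 of the 61973 features (gene sums and unmatched single transcripts) measured in whole rainbow trout (Oncorhynchus mykiss) alevins, which are hatched fish that still carry yolk. They were selected on their CPM (counts of a gene relative to the library total) in all 18 libraries, with the levels of every group already known. All their levels and changes are therefore given as descriptions, without a test, and p-values are printed only for other genes. The lists that hold those other genes were also set with earlier results of these data known.

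The fish were held from hatching for 96 hours at 14 °C in flow-through 9-liter tanks and were taken at 4 days post-hatch. One group had solvent only, 0.01% dimethyl sulfoxide (DMSO), and 5 groups had 17α-ethinylestradiol (EE2), a synthetic estrogen, at a measured 1.13 or 1.57 ng/L, 6.22 ng/L, 16.3 ng/L or 55.1 ng/L. The labels name DMSO for the solvent group and not for the exposed groups. A group of 169 ng/L named in the design text was not analysed here. Each group held 3 replicates, A, B and C, and each replicate was RNA pooled from 3 whole alevins. Whether pools of 1 group were raised in different tanks is not in the labels, so p-values measure only how these pools varied, which may be technical. In whole fish, fewer liver cells and less RNA per liver cell cannot be told apart.

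Plasma proteins carry nutrients and metals that do not travel free in blood. Hepatocytes make most of them, and in fish larvae the yolk syncytial layer, the cell layer around the yolk, makes some as well; in zebrafish it transcribes apolipoprotein genes while yolk lipid is packed into lipoproteins. In egg-laying fish, estrogen acting on the liver induces the egg yolk precursor vitellogenin and egg envelope proteins, which are themselves plasma proteins.

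Libraries held 12658946 to 32851570 estimated counts, and those of 1.13, 1.57 and 16.3 ng/L were the deepest. The groups also differed in how effective transcript lengths were computed before deposit. In solvent and 55.1 ng/L libraries, the transcript length minus the effective length was 1 constant per library, between 171.6 and 194.8 bases. In the libraries of the other 4 concentrations it varied from transcript to transcript. The 55.1 ng/L libraries are thus compared with solvent within 1 kind. For the other 4 concentrations the kind of quantification and the exposure cannot be told apart against solvent. Values of 1.57, 6.22 and 16.3 ng/L are therefore also given against 1.13 ng/L, within the varied kind. The 6.22 ng/L libraries were all shallower than those of 1.13 ng/L, so that depth and concentration cannot be told apart there. The same holds against solvent for 1.13, 1.57 and 16.3 ng/L. Their libraries held at least 19679734 counts, and those of solvent at most 17076432. Of 3 known estrogen targets, 2 were called higher than in solvent at 1.13 ng/L and all 3 at each higher concentration. The egg envelope gene zp2.3 stood at 0.0435 CPM in solvent, 1.40 CPM at 1.13 ng/L and 686.4 CPM at 55.1 ng/L. The estrogen receptor gene esr1 rose from 2.83 CPM in solvent to 6.70 CPM at 1.13 ng/L (edgeR quasi-likelihood test, Benjamini-Hochberg adjusted p = 0.0099; 0.0566 without solvent replicate B) and to 37.9 CPM at 55.1 ng/L (adjusted p = 2.65e-06). With only the most abundant esr1 transcript, those adjusted p-values were 0.454 and 0.141. For zp2.3 at 1.13 ng/L the edgeR adjusted p was 0.0123, and 0.0623 and 0.0504 without solvent replicates A and B. The vitellogenin gene vtg3 was not called at 1.13 ng/L (0.0467 CPM in solvent and 0.0657 CPM there, edgeR adjusted p = 0.858). It stood at 24.4 CPM at 55.1 ng/L (adjusted p = 1.46e-06).

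Of the 7 genes, tfa is read from 2 transcripts and each of the others from 1. Per length, in TPM (transcript abundance scaled to length and a common total), the solvent level was highest for tfa (289.9 TPM, mean of 3 libraries), followed by leg1 (131.2 TPM). Next came spp2 at 65.99 TPM, ahsg2 at 61.1 TPM and rbp4 at 59.23 TPM, whose libraries overlapped. apoe stood at 38.0 TPM and apoba, by far the longest transcript at 14030 bases, at 5.62 TPM. All 7 passed the filter on low counts. All further levels are TMM-scaled CPM unless TPM is named. CPM compare 1 gene between libraries and not different genes with each other.

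Across concentrations the 7 genes showed 3 shapes. rbp4 was highest at 55.1 ng/L. ahsg2 and spp2 were lowest there and were already below solvent at 16.3 ng/L. leg1, tfa, apoba and apoe were highest at 1.13 ng/L and second highest at 1.57 ng/L. Of these, leg1 alone lay below solvent without overlap at 55.1 ng/L in CPM, whereas in deposited TPM tfa and apoe did so as well. The ratio of the highest to the lowest group mean was 2.06 for rbp4, 2.16 for apoba, 2.29 for tfa, 2.97 for ahsg2, 4.09 for spp2, 6.24 for apoe and 9.23 for leg1.

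**Figure D1:**
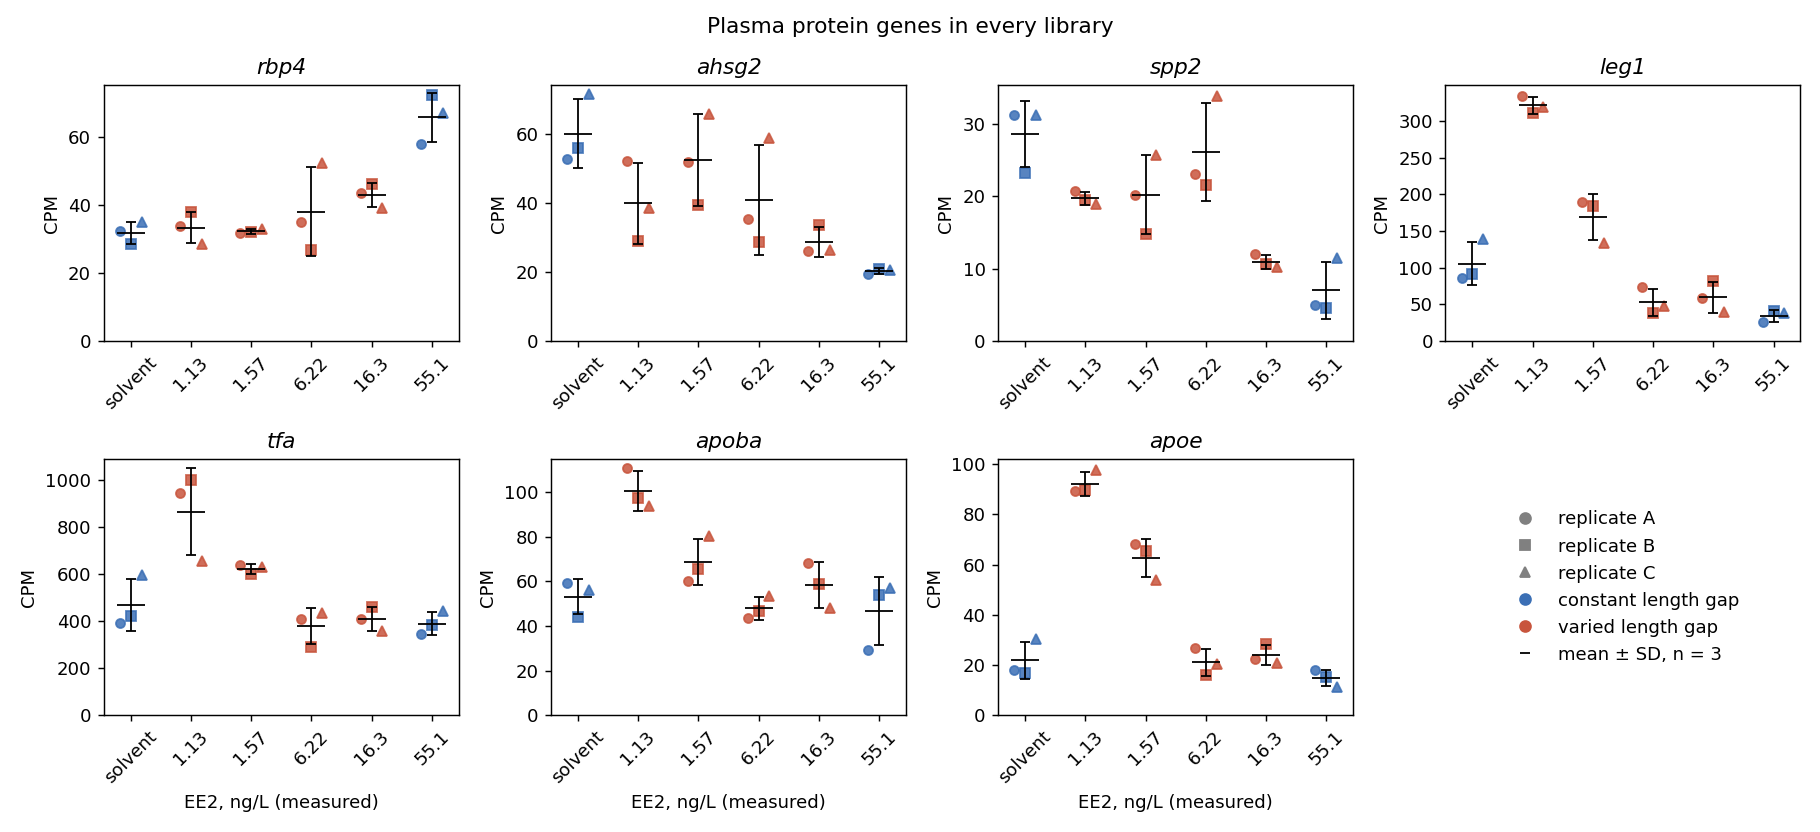
CPM of each gene (y axis, linear, from 0) in each of 18 libraries by measured EE2 concentration in ng/L (x axis). Symbols mark replicates, colours the kind of effective length, and black marks the mean ± SD of 3 libraries; rbp4 at 55.1 ng/L lies above all other groups, and apoe and leg1 at 1.13 ng/L lie above all other groups.

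The carriers come first. rbp4 encodes retinol binding protein 4, which carries vitamin A from its stores to tissues. Its level in the solvent libraries A, B and C was 32.2, 28.5 and 35.0 CPM, and at 55.1 ng/L it was 58.0, 72.2 and 67.0 CPM. Every library of 55.1 ng/L was thus above every solvent library. The difference was 1.04 ± 0.18 on the log2 scale (SE), a 2.06-fold higher level in CPM. Other ways of processing gave log2 changes down to 0.799. In deposited TPM the groups did not overlap either, at 55.41 to 62.85 TPM in solvent and 88.65 to 117.0 TPM at 55.1 ng/L. Between these ends, rbp4 was at 33.7, 37.8 and 28.6 CPM at 1.13 ng/L and at 31.7, 31.9 and 33.1 CPM at 1.57 ng/L. At 16.3 ng/L it was at 43.4, 46.3 and 39.2 CPM, above solvent without overlap (log2 change 0.43 ± 0.18) and above 1.13 ng/L without overlap (0.36 ± 0.18). On deposited TPM the latter difference was 0.081 on the log2 scale and the libraries overlapped, at 68.1 to 84.7 TPM against 61.55 to 81.8 TPM. The 6.22 ng/L libraries were spread widely, at 35.1, 26.8 and 52.3 CPM, and replicate C set the mean. With that replicate the change from solvent was 0.25 ± 0.18 on the log2 scale, and without it -0.048. In order of mean level the groups ran solvent, 1.57, 1.13, 6.22 and 16.3 ng/L, then 55.1 ng/L, and each neighbouring pair overlapped except 16.3 and 55.1 ng/L.

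tfa encodes transferrin, the iron carrier of plasma. It was at 390.2, 421.0 and 596.1 CPM in solvent replicates A, B and C. At 1.13 ng/L it was at 943.8, 1001.0 and 654.1 CPM, and at 1.57 ng/L at 639.2, 599.2 and 631.9 CPM. Both groups lay above all solvent libraries, by 0.88 ± 0.19 and 0.41 ± 0.19 on the log2 scale; at 1.57 ng/L the gap to the highest solvent library was small. In CPM the higher concentrations overlapped solvent. The 6.22 ng/L libraries held 411.2, 290.8 and 433.3 CPM and those of 16.3 ng/L held 409.5, 461.2 and 357.7 CPM. At 55.1 ng/L the values were 344.9, 382.3 and 441.5 CPM (log2 change from solvent -0.27 ± 0.19). In deposited TPM, however, all these groups lay below every solvent library (253.9 to 342.7 TPM). They held 169.6 to 215.0 TPM at 6.22 ng/L, 189.6 to 244.0 TPM at 16.3 ng/L and 179.1 to 236.8 TPM at 55.1 ng/L. Against 1.13 ng/L, and so within the varied kind, tfa was lower without overlap, 1.39-fold at 1.57 ng/L and 2.29-fold and 2.12-fold at the next 2 concentrations. The shorter of its transcripts (2495 bases) held 11.5% of the tfa counts in solvent (mean of 3 libraries), 15.8% at 1.13 ng/L and 10.4% at 6.22 ng/L, so that the longer one (2540 bases) held most tfa counts in every library. How reads were shared between these similar transcripts is an estimate, and only their sum is used here.

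ahsg2 and spp2 belong to the cystatin superfamily by their domains. ahsg2 is an alpha-2-HS-glycoprotein (fetuin) gene; in mammals fetuin-A binds calcium phosphate and keeps mineral from precipitating in blood. It was at 52.8, 56.1 and 71.7 CPM in solvent and at 19.3, 20.9 and 20.6 CPM at 55.1 ng/L. The 55.1 ng/L libraries were close to each other and all below the lowest solvent library, 2.97-fold lower in mean (log2 change -1.57 ± 0.27). At 16.3 ng/L the level was 26.2, 33.7 and 26.4 CPM, also below solvent without overlap (-1.06 ± 0.27). The 3 lower concentrations were spread widely: 52.4, 29.0 and 38.7 CPM at 1.13 ng/L, 52.1, 39.4 and 65.97 CPM at 1.57 ng/L and 35.3, 28.6 and 59.0 CPM at 6.22 ng/L. In CPM those of 1.13 ng/L lay below solvent by a small gap (-0.59 ± 0.26) and the other 2 groups overlapped it. In deposited TPM the 6.22 ng/L libraries, at 26.95 to 44.29 TPM, lay below those of solvent, at 56.33 to 67.23 TPM. Within the varied kind the 16.3 and 1.13 ng/L libraries overlapped in CPM (-0.47 ± 0.26). In deposited TPM those of 16.3 ng/L (22.67 to 26.22 TPM) lay below all of 1.13 ng/L (31.04 to 53.98 TPM). Whether ahsg2 at 16.3 ng/L lay apart from 1.13 ng/L thus depended on the scaling.

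spp2 encodes secreted phosphoprotein 2, which in mammals circulates bound to fetuin and binds bone morphogenetic proteins. Solvent libraries held 31.2, 23.3 and 31.2 CPM and those of 55.1 ng/L held 4.96, 4.54 and 11.5 CPM. The groups did not overlap, and the fitted level was 4.14-fold lower at 55.1 ng/L (log2 change -2.05 ± 0.30), the largest difference from solvent among the 7 genes at that concentration. Replicate C of 55.1 ng/L was more than 2-fold above replicates A and B; without it the log2 change was -2.59. At 16.3 ng/L spp2 was at 11.96, 10.7 and 10.2 CPM, below solvent without overlap (-1.39 ± 0.28) and below 1.13 ng/L without overlap (-0.85 ± 0.28). The levels of 1.13 ng/L were 20.7, 19.4 and 19.0 CPM, just below the lowest solvent library. Those of 1.57 ng/L (20.1, 14.8 and 25.7 CPM) and 6.22 ng/L (23.0, 21.5 and 33.8 CPM) overlapped solvent. The 55.1 ng/L libraries were below those of 6.22 ng/L without overlap as well, by 3.78-fold, although these groups differ in kind of effective length.

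leg1 is named for liver-enriched gene 1; in zebrafish the leg1 genes encode secreted proteins that the growing embryonic liver needs. It had the widest range of the 7 genes. The solvent libraries held 86.3, 91.3 and 138.9 CPM, and replicate C stood apart from the other 2. At 1.13 ng/L leg1 was at 333.6, 310.7 and 319.1 CPM, 3.04-fold above solvent (log2 change 1.60 ± 0.29). At 1.57 ng/L it was at 189.2, 184.7 and 133.1 CPM, which overlapped solvent through the lowest library (0.68 ± 0.28). In deposited TPM the 1.57 ng/L libraries lay above every solvent library, at 177.6 to 235.5 TPM against 113.6 to 160.3 TPM. All higher concentrations lay below every solvent library. The values were 73.2, 37.7 and 48.3 CPM at 6.22 ng/L, 58.1, 81.3 and 39.3 CPM at 16.3 ng/L and 25.5, 41.1 and 37.8 CPM at 55.1 ng/L. Against solvent the log2 changes were -0.99 ± 0.29, -0.83 ± 0.29 and -1.60 ± 0.30 in that order. Against 1.13 ng/L the level was 1.90-fold lower at 1.57 ng/L, 6.05-fold lower at 6.22 ng/L and 5.39-fold lower at 16.3 ng/L, each without overlap.

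The lipoprotein genes shared the peak at 1.13 ng/L. apoba encodes apolipoprotein B, the structural protein of lipoproteins rich in triglyceride. It was at 59.3, 44.2 and 56.2 CPM in solvent, 110.9, 97.5 and 93.8 CPM at 1.13 ng/L and 60.2, 65.7 and 80.3 CPM at 1.57 ng/L. Both exposed groups lay above solvent, by 0.92 ± 0.21 and 0.37 ± 0.21 on the log2 scale, the second by less than 1 CPM between the nearest libraries. The values were 43.4, 46.8 and 53.7 CPM at 6.22 ng/L, 68.4, 58.7 and 47.9 CPM at 16.3 ng/L and 29.2, 53.8 and 56.9 CPM at 55.1 ng/L. These 3 groups overlapped solvent, and at 55.1 ng/L replicate A stood well below the other 2 (log2 change from solvent -0.19 ± 0.21). Against 1.13 ng/L apoba was lower without overlap by 1.47-fold at 1.57 ng/L, 2.1-fold at 6.22 ng/L and 1.73-fold at 16.3 ng/L.

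apoe encodes apolipoprotein E, the ligand by which lipoprotein remnants are taken up, and is made by liver, yolk syncytial layer and macrophages. The solvent libraries held 18.1, 17.0 and 30.5 CPM. At 1.13 ng/L they held 89.3, 89.7 and 97.8 CPM and at 1.57 ng/L 68.3, 65.5 and 53.9 CPM. Both groups were far above the highest solvent library, with fitted levels 4.21-fold (log2 change 2.07 ± 0.23) and 2.85-fold (1.51 ± 0.23) those of solvent. The 6.22 ng/L libraries held 26.7, 16.0 and 20.4 CPM of apoe, those of 16.3 ng/L held 22.2, 28.4 and 20.9 CPM and those of 55.1 ng/L held 17.9, 15.3 and 11.2 CPM. In CPM all of these groups overlapped solvent. In deposited TPM the 55.1 ng/L libraries lay below every solvent library, at 17.01 to 25.89 TPM against 31.23 to 49.14 TPM. The change from solvent at 6.22 ng/L, -0.06 ± 0.23 on the log2 scale, turned to 0.258 without solvent replicate C. At 55.1 ng/L it was -0.57 ± 0.24. Against 1.13 ng/L the log2 change was -0.56 ± 0.22 at 1.57 ng/L, and -2.14 ± 0.23 and -1.95 ± 0.23 at the next 2 concentrations, each without overlap.

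**Figure D2:**
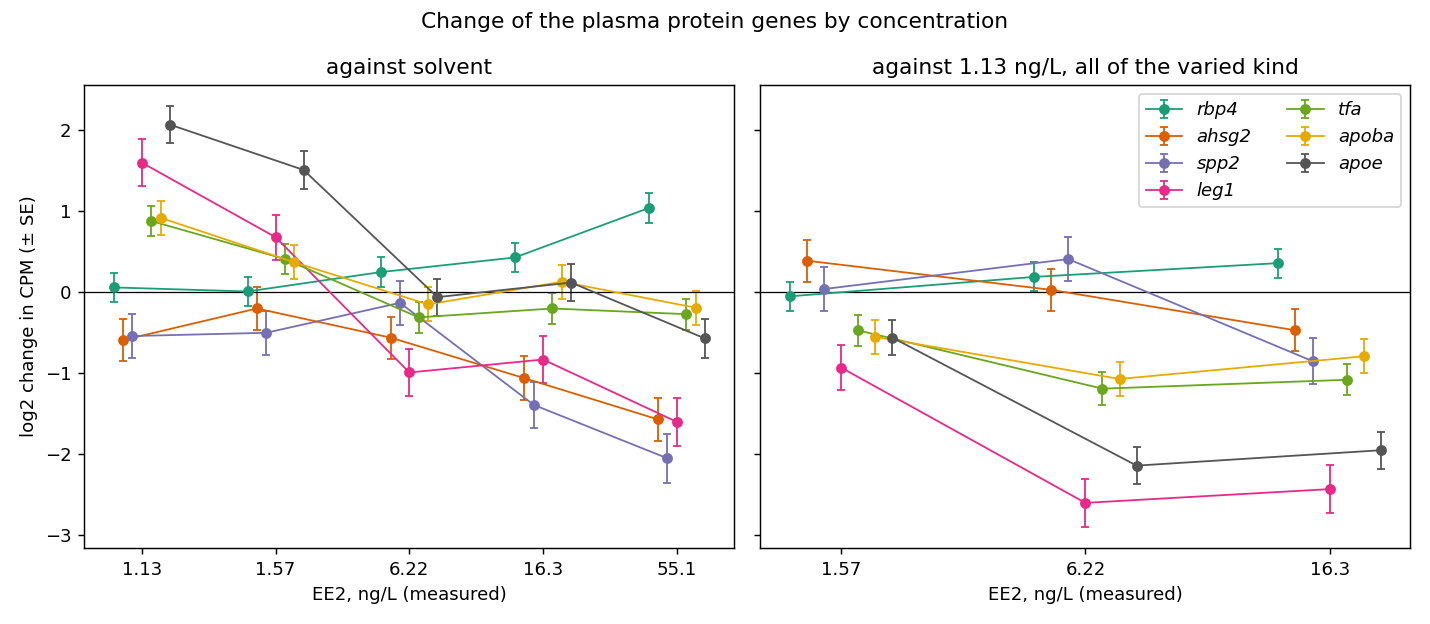
Log2 change in CPM with its SE (y axis) by measured EE2 concentration in ng/L (x axis), against solvent (left) and against 1.13 ng/L within libraries of the varied kind (right); points are shifted sideways for legibility. Against solvent at 55.1 ng/L rbp4 is at 1.04 and spp2, leg1 and ahsg2 are at -2.05, -1.60 and -1.57; on the right leg1 and apoe reach -2.60 and -2.14 at 6.22 ng/L.

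Genes whose libraries do not overlap solvent were counted in CPM. At 1.13 ng/L 4 genes were higher and 2 lower, where 16.3% and 13.4% of all 46999 tested genes were. At 1.57 ng/L 3 were higher (14.4% of all genes) and none lower (11.8%). At 6.22 ng/L 1 was lower (5.83%) and none higher (5.48%), and at 16.3 ng/L 1 was higher (8.52%) and 3 lower (7.78%). At 55.1 ng/L 1 was higher (7.57% of all genes) and 3 lower (7.97%). Against 6.22 ng/L, 1 gene was higher (5.51% of all genes) and 2 were lower (5.93%) at 55.1 ng/L. Against 1.13 ng/L 4 genes were lower at 1.57 ng/L (6.79% of all genes) and none higher (5.87%), 4 lower and 1 higher at 6.22 ng/L (18.4% and 16.0%), and 5 lower and 1 higher at 16.3 ng/L (13.0% and 11.3%). Since the genes were chosen for these patterns, the counts describe the choice.

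Some libraries were high or low for several of the genes at once. Of the solvent libraries, replicate C was the highest for 5 genes: rbp4, ahsg2, leg1, tfa and apoe. At 6.22 ng/L replicate C was the highest for 5 genes and replicate B the lowest for 6. Replicate B of 16.3 ng/L was the highest for 5 genes and replicate C the lowest for 6, and at 55.1 ng/L replicate A was the lowest for 5. The TMM scaling factors of the 6.22 ng/L libraries were 0.936, 1.039 and 0.867 for A, B and C, which spread the CPM values of that group further than the deposited TPM does. In solvent the factors were 1.117, 1.104 and 0.992, and at 55.1 ng/L 0.924, 0.943 and 0.933. The part of scaling in these shifts and in the differences between groups was not tested. The authors' deposited tables, which compare each concentration with solvent by transcript, gave log2 changes for the 6 genes read from 1 transcript that lay within 0.021 of those above in all 30 pairs.

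Other genes of 6 lists, on plasma proteins, carriers and the handling of what they carry, were tested against solvent in the same edgeR model, 91 in all. The lists also hold enzyme, receptor and other cell-bound protein genes, such as aco1 and tfr1a, which are not plasma proteins. Since the lists were set with earlier results known, their shares beside those of all genes are descriptions. At 55.1 ng/L none of the 91 passed the adjusted threshold in edgeR, with 0.372% of all genes passing. An unadjusted edgeR p under 0.05 was found for 21 of the 91 and for 5106 of all 46999 genes. DESeq2 passed 8 of the 91, and its share of all genes is not given here. Those 8 included apoa2, a high density lipoprotein gene (log2 change -0.48), tfr1a, the transferrin receptor (-0.53), agt, angiotensinogen (0.98), and lect2, a liver chemotactic factor (1.58), which were picked for mention after their values were seen. The median log2 change of the 91 genes was 0.021 and that of all genes -0.01, and 47 were above 0. The list nearest to ahsg2 and spp2, the cystatin family and mineral binding genes, held only 2 genes. fetub, a second fetuin gene, stood at 599.6 CPM in solvent and 634.0 CPM at 55.1 ng/L, and spp1, osteopontin, at 5.90 and 4.58 CPM. As ahsg2 and spp2 were chosen on their levels, how far they lay from these 2 describes the choice. Beside rbp4, the 16 genes of retinoid carriage and metabolism had a median log2 change of -0.037 at 55.1 ng/L with none past the threshold (3 with an unadjusted p under 0.05). Its relative rbp4l stood at 30.6 CPM in solvent and 30.5 CPM at 55.1 ng/L. The medians at 55.1 ng/L were -0.163 for 11 lipoprotein genes, -0.046 for 12 iron genes, 0.033 for 29 complement and coagulation genes and 0.232 for 21 other secreted genes.

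At 1.13 ng/L 5 of the 91 genes rose (5.5%, against 4.88% of all genes) and 1 fell (1.1%, against 3.17%), as tested with edgeR and adjusted over all genes. The DESeq2 count was 12. leap2, an antimicrobial peptide gene of the liver, rose most, from 8.03 to 24.9 CPM (log2 change 1.63, adjusted p = 0.000287). spp1 rose from 5.90 to 13.3 CPM (1.17, adjusted p = 0.00224), and both of these calls held in all 18 fits that each left out 1 library. agt rose by 1.04 on the log2 scale (adjusted p = 0.00929; 0.056 without solvent replicate A and 0.051 without B). aco1, an iron-responsive RNA-binding aconitase gene, rose by 0.39 (adjusted p = 0.0148; 0.0778 without replicate B of 1.13 ng/L, 0.0776 and 0.0567 without solvent replicates A and B). igf2b, a growth factor gene, rose by 0.66 (adjusted p = 0.0437, lost in 15 of the 18 fits), and crabp1a, a cellular retinoic acid binding protein gene, fell by 0.39 on the log2 scale (adjusted p = 0.043, lost in 11). When the most abundant transcript stood in for each gene, the adjusted p-values of aco1, igf2b and crabp1a were 0.0702, 0.0563 and 0.0505. The count of 6 was 2 when solvent replicate A was left out and 3 when the 1.13 ng/L replicate B was. Of 11 lipoprotein genes, 5 had an unadjusted edgeR p under 0.05, as had 11031 of all 46999 genes. None of the 11 passed in edgeR (DESeq2 passed apoa2 and lcat), with a median log2 change of 0.119 against 0.002 for all genes. These 11 do not include apoa-i-2, an apolipoprotein A-I gene whose CPM is given below among the genes with patterns like leg1. At 1.57 ng/L leap2 (1.05, adjusted p = 0.0111; 0.0551 without solvent replicate B) and spp1 (1.28, adjusted p = 0.00393) rose and none fell, with 4.26% of all genes passing. This count of 2 was 1 without solvent replicate B and 6 without solvent replicate C. At 6.22 and 16.3 ng/L none of the 91 passed in edgeR, with 0.0723% and 0.366% of all genes passing, and DESeq2 passed 2 and 4. An unadjusted edgeR p under 0.05 was found for 15 and 17 of the 91, and for 3612 and 5670 of all genes. At 55.1 against 6.22 ng/L none passed in edgeR either, with 0.0383% of all genes passing, and DESeq2 passed 4. There 13 of the 91 and 3570 of all genes had an unadjusted edgeR p under 0.05.

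**Figure D3:**
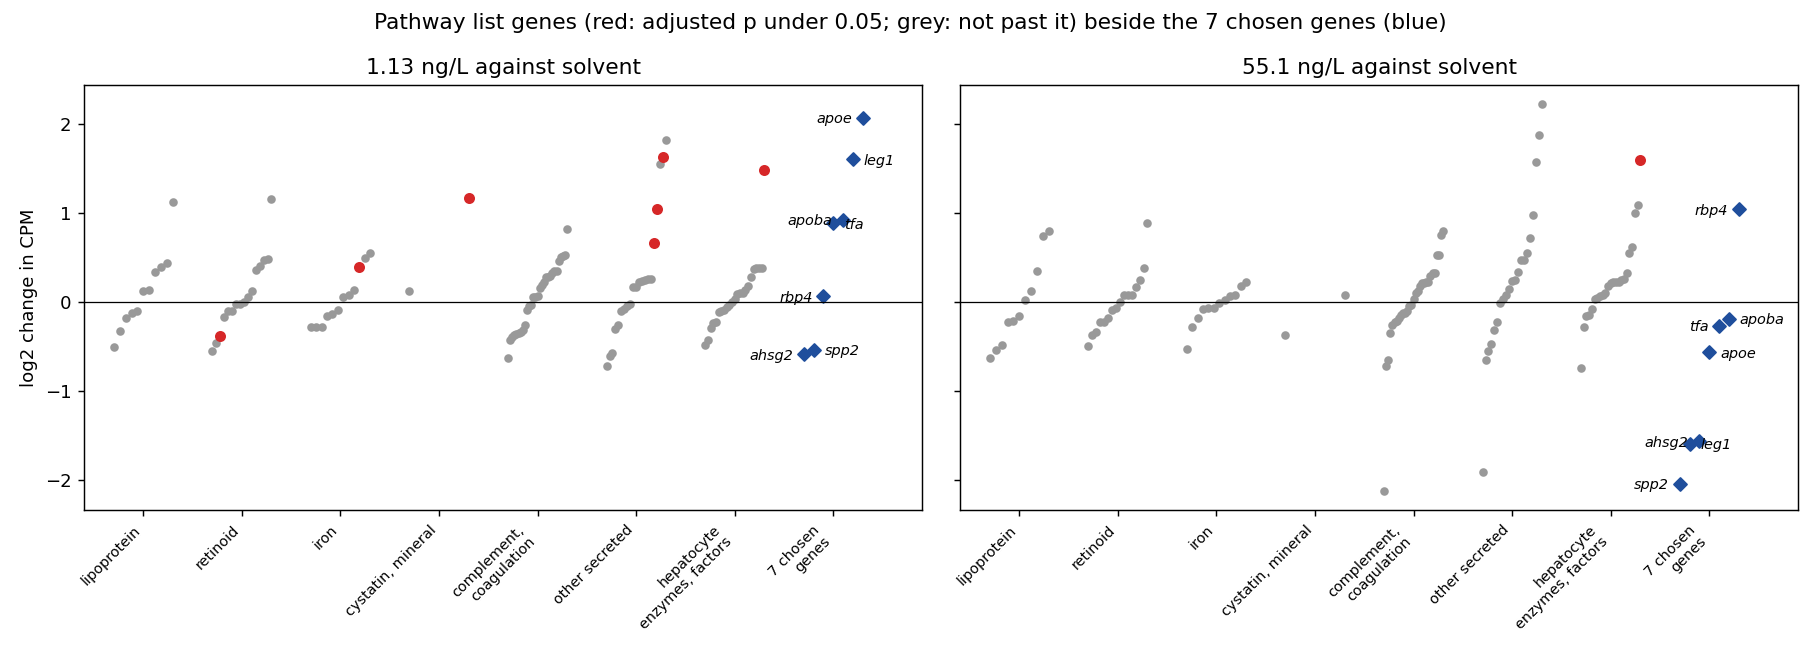
Log2 change in CPM (y axis) at 1.13 ng/L (left) and 55.1 ng/L (right) against solvent of each tested gene of 7 lists (x axis), sorted within its list, beside the 7 chosen genes in blue. Red points passed the adjusted threshold in edgeR: 7 at 1.13 ng/L and 1, bhmt, at 55.1 ng/L.

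Within the varied kind, the list genes moved in both directions. The 6.22 ng/L libraries held 15365201 to 16164585 counts and those of 1.13 ng/L 26160497 to 28166132. Their median length gaps were 199.6 to 208.5 and 234.4 to 247.4 bases. Depth, length gap and concentration therefore cannot be told apart in this comparison. At 6.22 against 1.13 ng/L 8 of the 91 genes were higher (8.79%, against 7.67% of all genes) and 11 lower (12.1%, against 8.51%), and 9 of these 19 calls held in all 18 fits that left out a library. Lower at 6.22 ng/L, as leg1, tfa, apoba and apoe were, were leap2 (log2 change -2.14, adjusted p = 2.25e-05), spp1 (-1.08, adjusted p = 0.00174), the intestinal retinol carrier gene rbp2 (-0.94, adjusted p = 0.00122), lcat, the plasma cholesterol esterifying enzyme (-0.66, adjusted p = 0.00983), and aco1 (-0.46, adjusted p = 0.00307). Higher were the sex steroid carrier gene shbg (1.5, adjusted p = 0.00394), ambp, the gene of alpha-1-microglobulin and bikunin (1.33, adjusted p = 0.00608), apof, an apolipoprotein gene (1.08, adjusted p = 0.00194), and crabp1a (0.82, adjusted p = 0.000373). Those 9 are the calls that held throughout. The others included hpxb, hemopexin, a heme carrier (-0.82, adjusted p = 0.0158; 0.0536 and 0.0659 without replicates A and B of 6.22 ng/L and 0.0705 without replicate B of 1.13 ng/L), and apoa2 (-0.42, adjusted p = 0.0328, lost in 5 fits). The iron exporter gene slc40a1 (-0.89, adjusted p = 0.0162, lost in 3 fits), rbp4l (0.71, adjusted p = 0.0289, lost in 3), and the clotting genes proca (0.87, adjusted p = 0.014, lost in 2) and serpinf2 (0.84, adjusted p = 0.0279, lost in 3) were also called. Among varied-kind libraries alone, rbp4l, serpinf2 and apoa2 had adjusted p-values of 0.0725, 0.0591 and 0.0663. Of the 91 genes 12 passed when the 6.22 ng/L replicate C was left out, and 12 when the 1.13 ng/L replicate B was. The median log2 change was -0.118 against -0.015 for all genes.

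At 16.3 against 1.13 ng/L 6 of the 91 genes were higher (6.59%, against 1.95% of all genes) and 7 lower (7.69%, against 2.36%). leap2 (log2 change -1.71, adjusted p = 0.000175), rbp2 (-0.95, adjusted p = 0.00301) and shbg (1.56, adjusted p = 0.00889) held in all 18 fits that left out a library. The remaining 10 calls were lost in some of these fits. apof (0.94, adjusted p = 0.0119) and proca (1.00, adjusted p = 0.0166) were each lost in 2. lcat (-0.66, adjusted p = 0.0233), apoa2 (-0.54, adjusted p = 0.0247), crabp1a (0.47, adjusted p = 0.0269), spp1 (-0.75, adjusted p = 0.0303) and the growth factor carrier gene igfbp1 (0.864 CPM at 1.13 and 0.0131 CPM at 16.3 ng/L, adjusted p = 0.0235) were each lost in 4, and ambp (1.17, adjusted p = 0.0305) in 5. aco1 (-0.35, adjusted p = 0.0372) was lost in 8 and serpinf2 (0.89, adjusted p = 0.0475) in 15, and among varied-kind libraries alone the adjusted p of serpinf2 was 0.102. Leaving out replicate A or B of 1.13 ng/L took the count of 13 to 6 or 4, and leaving out replicate B or C of 16.3 ng/L took it to 7 or 5. At 1.57 against 1.13 ng/L none of the 91 passed in edgeR, with 0.0447% of all genes passing. None of the 94 with a DESeq2 adjusted p passed there. An unadjusted edgeR p under 0.05 was found for 11 of the 91 and for 2609 of all genes. The comparisons of 1.57, 6.22 and 16.3 with 1.13 ng/L share the 1.13 ng/L libraries, which are also those set against solvent above.

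Markers of liver cells and of other cell types were summed per library. The 23 hepatocyte enzyme and transcription factor genes, which are not secreted, were all expressed. Their sum was 240.3 to 297.3 CPM in solvent, 285.9 to 393.2 CPM at 1.13 ng/L and 338.3 to 451.4 CPM at 55.1 ng/L. The hepatocyte sums of the 1.13 and 6.22 ng/L groups overlapped those of solvent. In the 1.57, 16.3 and 55.1 ng/L groups every library lay above the highest solvent sum. Their lowest sums were 318.4, 308.4 and 338.3 CPM in that order. 1 gene carried much of this. bhmt, a betaine-homocysteine methyltransferase of the liver, rose from 42.7 to 128.5 CPM at 55.1 ng/L (log2 change 1.59, edgeR adjusted p = 0.00467) and to 119.1 CPM at 1.13 ng/L (1.48, adjusted p = 0.00189), and was the only list gene called in either comparison (18 of 23 were above 0 at 55.1 ng/L). Without bhmt the sum was 202.5 to 252.8 CPM in solvent. It was then 245.9 to 259.4 CPM at 1.57 ng/L, 239.2 to 270.6 CPM at 16.3 ng/L and 207.5 to 322.4 CPM at 55.1 ng/L, which all overlap solvent. Within the varied kind, urad, a uric acid breakdown gene, was higher than at 1.13 ng/L at 6.22 ng/L (1.05, adjusted p = 0.035) and 16.3 ng/L (1.19, adjusted p = 0.046), and bhmt (-0.91, adjusted p = 0.0133) and the urea cycle gene cps1 (-0.63, adjusted p = 0.0216) were lower at 6.22 ng/L. The urad calls were lost in 4 and 14 of the 18 fits that left out a library, those of bhmt and cps1 in 4 and 3.

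Of 14 yolk syncytial layer and intestine genes 11 were tested, and the early markers cdx4 and mxtx2 had at most 2 and 15 counts in any library. The summed level was 87.4 to 99.5 CPM in solvent, 69.9 to 106.8 CPM at 1.13 ng/L and 87.7 to 105.3 CPM at 55.1 ng/L, which overlap. At 1.13 ng/L, where apoba and apoe were highest, 4 of the 11 were above 0, with a median log2 change of -0.58. An unadjusted edgeR p under 0.05 was found for 6 of the 11 and for 11031 of all 46999 genes. Of the 11, 2 rose: pla2g12b, a phospholipase-like gene that in zebrafish acts in lipoprotein production, from 9.28 to 22.7 CPM (log2 change 1.29, edgeR adjusted p = 0.0129; 0.054 without replicate A of 1.13 ng/L, 0.0578 without solvent replicate B), and gata5, an endoderm transcription factor gene, from 1.097 to 2.507 CPM (1.19, adjusted p = 0.00953; 0.0504 without solvent replicate B). fabp2, an enterocyte fatty acid carrier gene, stood at 30.6 CPM in solvent and 16.9 CPM at 1.13 ng/L and was not called (edgeR adjusted p = 0.103). vil1 of the same list stood at 20.8 and 13.9 CPM and was not called either (edgeR adjusted p = 0.0765). fabp2 and vil1 made up much of the mean solvent sum of 93.7 CPM. The sum thus joins yolk syncytial layer and intestine genes with changes of opposite sign, and gives the level of neither. The 7 macrophage genes, of interest for apoe, summed to 50.8 to 56.8 CPM in solvent, 50.8 to 61.2 CPM at 1.13 ng/L and 47.4 to 50.5 CPM at 55.1 ng/L, and none passed against solvent. Of their mean solvent sum of 53.0 CPM, cd63 alone held 31.8 CPM, so that the sum mostly follows that gene. The sums at 55.1 ng/L lay just below all those of solvent. At 6.22 against 1.13 ng/L, where apoe was 4.39-fold lower, 1 of the 7 was called lower, as were 8.51% of all genes. It was mpeg1.1, a macrophage perforin gene (log2 change -0.97, edgeR adjusted p = 0.0384, lost in 6 of the 18 fits that left out a library). Of the 11 yolk syncytial layer and intestine genes, 2 were called lower there. These were pla2g12b (-1.47, adjusted p = 0.00355, held in all fits) and gata5 (-0.97, adjusted p = 0.0148, lost in 2). At 16.3 against 1.13 ng/L gata5 was lower (-1.08, adjusted p = 0.0215, lost in 4). There fabp2 (1.15, adjusted p = 0.0476, lost in 14) and vil1 (0.71, adjusted p = 0.0453, lost in 15) were higher. Of all genes 2.36% were lower and 1.95% higher. Sums of 7 tested erythrocyte genes were 886.2 to 999.6 CPM in solvent. They were lower without overlap at 1.13 ng/L (735.9 to 825.9 CPM) and 55.1 ng/L (693.6 to 860.3 CPM). None of these genes passed against solvent in edgeR, and a single gene held 570.8 CPM of the mean solvent sum of 960.7 CPM. Both pancreas markers had under 5 counts in every library. The part of cell makeup in the levels of the 7 genes was not tested.

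**Figure D4:**
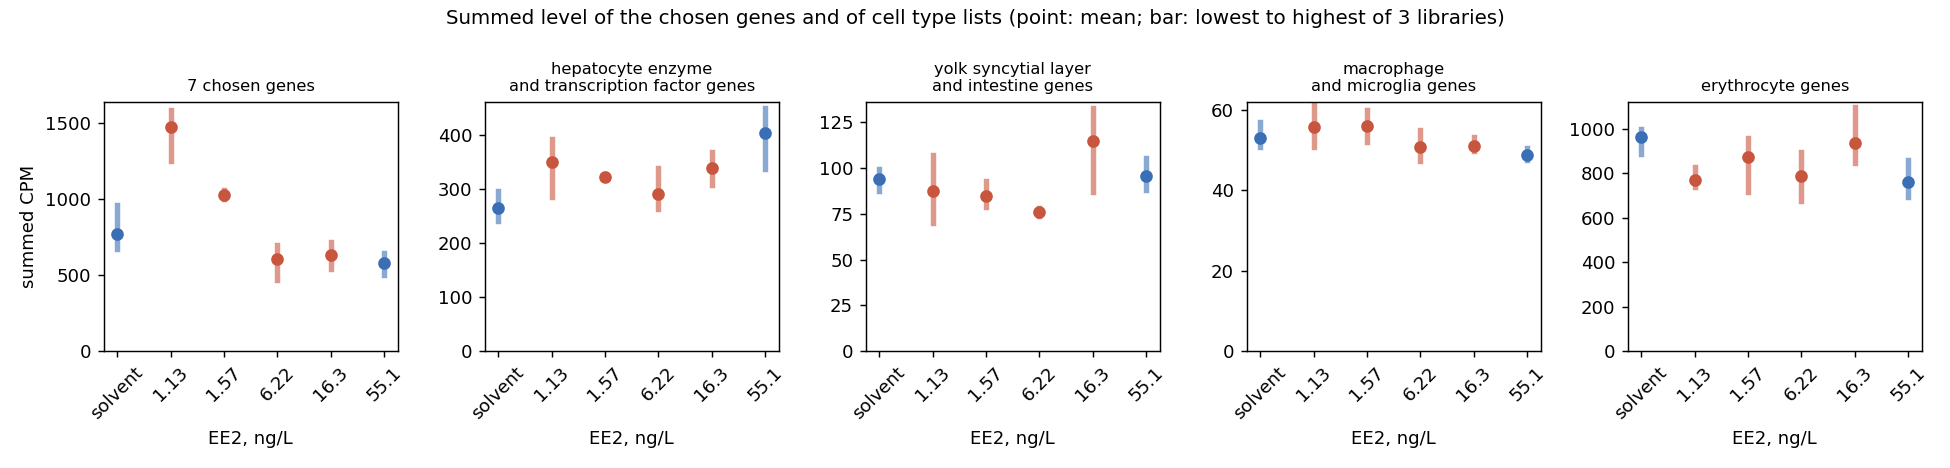
Summed CPM (y axis, linear, from 0) of the 7 chosen genes and of 4 cell type lists by measured EE2 concentration in ng/L (x axis); points are means and bars span the lowest to the highest of 3 libraries, blue for the constant and red for the varied kind of effective length. The chosen genes sum to a mean of 1473 CPM at 1.13 ng/L and 770.3 CPM in solvent, of which tfa holds 866.2 and 469.1 CPM. ahsg2 and spp2 are lower at 1.13 ng/L than in solvent. Macrophage sums lie between 47.3 and 61.2 CPM, and cd63 holds 31.8 CPM of their solvent mean of 53.0 CPM.

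For each of the 7 genes the most similar patterns were looked up among 5954 other genes with a symbol and a mean of at least 1 CPM, by Pearson r of log2 CPM over the 18 libraries. These r values describe libraries that share exposure groups, depth and kind of effective length. apoe was closest to ctsc, the gene of the lysosomal protease cathepsin C (r = 0.97), cpi1 (0.968) and col1a1, the collagen type I gene of bone and skin (0.958). leg1 was closest to pla2g15, a lysosomal phospholipase gene (0.96), apoa-i-2 (0.955), and cpi1 (0.954). apoa-i-2 stood at 192.8 CPM in solvent, 762.5 CPM at 1.13 ng/L, 460.4 CPM at 1.57 ng/L and 66.3 CPM at 55.1 ng/L, so that it too was high at the low concentrations and low at the highest. col1a1 stood at 356.4 CPM in solvent, 1413 CPM at 1.13 ng/L and 322.6 CPM at 55.1 ng/L. The nearest patterns to tfa were those of hpxb (0.929), dpp7 (0.927) and shc2 (0.911), and to apoba those of fam102aa (0.877), slc30a1a (0.861) and lcat (0.856).

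The remaining genes had looser neighbours. spp2 was closest to nup37, a nuclear pore gene (0.861), masp2, a protease of the lectin pathway of complement (0.829), and ica1 (0.792). masp2 stood at 2.04 CPM in solvent, 0.708 CPM at 16.3 ng/L and 0.472 CPM at 55.1 ng/L. ahsg2 was also closest to nup37 (0.802), then ndnl2 (0.788) and kcnf1b (0.742). For rbp4 they were hsd11b2, an enzyme gene that inactivates cortisol (0.825), il6r, an interleukin receptor gene (0.819), and hspb1, a small heat shock protein gene (0.815). hspb1 stood at 8.48 CPM in solvent, 13.1 CPM at 16.3 ng/L and 13.9 CPM at 55.1 ng/L.

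**Figure D5:**
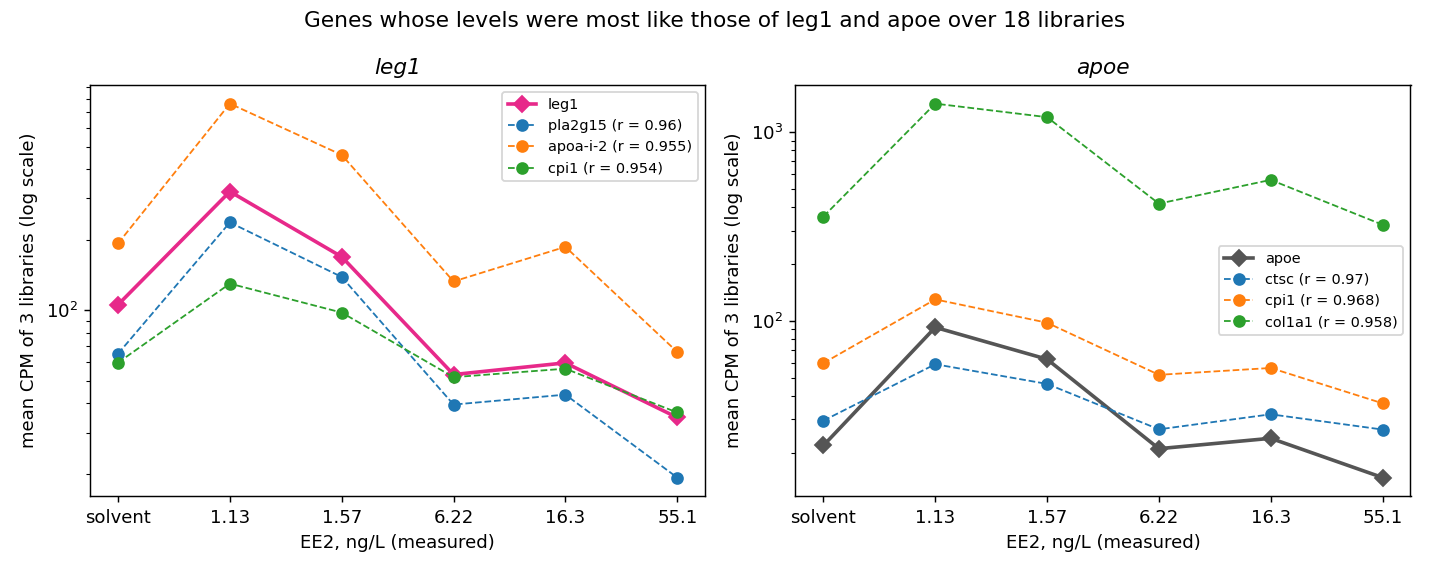
Mean CPM of 3 libraries (y axis, log scale) by measured EE2 concentration in ng/L (x axis) for leg1 (left) and apoe (right), each with the 3 symbol-bearing genes of highest Pearson r of log2 CPM over 18 libraries. All peak at 1.13 ng/L, with col1a1 at 1413 CPM and apoa-i-2 at 762.5 CPM.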

How the data were processed

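RNA sequencing libraries of 18 pools were used. Trimmomatic 0.38 (trimming), kallisto (transcript quantification) and DESeq2 are the tools named in the submitters' processing notes; other versions and the genome build are not given in the sources used here. The deposited tables list estimated counts for 79244 RefSeq transcripts, per the file headers. The same deposited tables give TPM, transcript length and effective length, per the file headers. The authors' comparison tables hold a mean of normalised counts (signal), per the file headers. They also hold the authors' log2 fold change and standard error, per the file headers. Their last deposited column is an adjusted p-value, which is not printed here.

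A RefSeq gene table supplied names only; 42410 of the transcripts (53.5%) matched it once version numbers were dropped. Estimated counts were summed by gene and rounded (25139 gene sums, 36834 unmatched transcripts). Counts were filtered with filterByExpr, TMM-scaled and fitted with edgeR 4.0.16 (R 4.3.3) quasi-likelihood in 1 model of 18 libraries (12 residual degrees of freedom; 46999 genes). Adjusted p-values are Benjamini-Hochberg over all genes, with a threshold of 0.05; the model was tested on simulated data. SE are from this fit. Levels are mean CPM ± SD or single libraries.

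The 7 genes and all lists were chosen with earlier results of these data known. Named were the 7 genes, and per chosen gene the 3 with the highest r. Per list and comparison, up to 3 called genes with the largest log2 change and at least 1 CPM were named. Outside this rule, igfbp1, under 1 CPM in both groups, was named to complete the calls at 16.3 against 1.13 ng/L. Some genes that were not called, such as fabp2 at 1.13 ng/L, were named too. A comparison of 55.1 with 6.22 ng/L was planned as free of the split in effective length; the files show that it crosses it. The comparisons with 1.13 ng/L for 1.57 and 6.22 ng/L, and the fits of 1 kind of library alone, were added after seeing that split. Alternatives tried were DESeq2 1.42.0 and its size factors, no filter, a replicate block, a length correction, single transcripts, limma 3.58.1 on log2(TPM + 1) and leaving out each library.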

Additional observations from a re-analysis of the deposited data

How the results depend on the processing

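Of 1603 alternative values for the log2 changes of the 7 genes, 27 had the opposite sign to the value reported. Of these, 6 also lay outside the spread between replicates, which was the SD of single libraries within groups (0.237 to 0.385 on the log2 scale, by gene). A further 15 values lay outside it with the same sign, and 1582 stayed within it. Most of the 1603 values left out 1 library, often of neither group compared, which can hardly move the change. The count of 1582 is thus no measure of how firm the changes are. The cause of the sign changes was not tested. The 6 were, from deposited TPM, rbp4 -0.206 and ahsg2 -0.318 at 6.22 against 1.13 ng/L. Without replicate C of 6.22 ng/L, rbp4 was at -0.048 against solvent and -0.105 against 1.13 ng/L, and ahsg2 at -0.319 against 1.13 ng/L; apoe at 6.22 ng/L was at 0.258 without solvent replicate C. Over all fits that left out a library, these ran from -0.048 to 0.451 and -0.105 to 0.394 for rbp4, from -0.319 to 0.275 for ahsg2 and from -0.272 to 0.258 for apoe.

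Counts of called genes of the 6 plasma protein and carrier lists depended on the test. edgeR tested 91 and DESeq2 gave an adjusted p for 90 to 94, by comparison. The shares of all genes called by DESeq2 and limma are not given here. DESeq2 called 12, 4, 2, 4 and 8 from 1.13 to 55.1 ng/L against solvent, where edgeR called 6, 2, 0, 0 and 0; at 55.1 against 6.22 ng/L it called 4 and edgeR 0 (13 with an unadjusted p under 0.05). Deposited TPM with limma gave 13 at 1.13, 1 at 16.3 and 4 at 55.1 ng/L against solvent, 1 at 55.1 against 6.22 ng/L, and 27 and 41 at 16.3 and 6.22 against 1.13 ng/L (13 and 19 in edgeR). A length correction gave 1 at 55.1 ng/L, and single transcripts gave 3 at 1.13 ng/L. Leaving out 1 library gave 2 to 9, 1 to 6, 0 to 1, 0 to 1 and 0 to 1 from 1.13 to 55.1 ng/L, 0 to 0 at 55.1 against 6.22 ng/L, 4 to 14 at 16.3, 0 to 0 at 1.57 and 12 to 21 at 6.22 against 1.13 ng/L. Libraries of 1 kind alone gave 0 at 55.1 ng/L against solvent and 9, 0 and 15 at 16.3, 1.57 and 6.22 against 1.13 ng/L.

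Replicate letters did not pair the libraries: of 45 same-letter pairs none had deviations correlated over 0.1 (-0.042 to 0.045), and 7 of 18 libraries correlated best with their own letter. With the replicate block the counts were 5, 2, 0, 0 and 0 against solvent, 0 at 55.1 against 6.22 ng/L, and 11, 0 and 18 at 16.3, 1.57 and 6.22 against 1.13 ng/L.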
